A study of Homo sapiens with 8 samples.

Results

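Small heat shock proteins hold unfolded proteins in solution, and a set of partner chaperones then refolds them or hands them on for degradation. HSPB8 forms a complex with the co-chaperone BAG3, which links it to HSP70 and to the autophagic removal of misfolded proteins. HSP70 works with HSP40 proteins, which deliver clients, and with HSP110 proteins, which exchange its nucleotide, and the transcription factor HSF1 switches on many of these genes when proteins misfold.

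Messenger RNA levels of 10 such genes were followed in HepG2 and Huh7, a pair of established human liver cancer cell lines. The genes were HSPB8, HSPB1, CRYAB, BAG3, HSPA1A, HSPA1B, HSPA8, DNAJB1, HSPH1 and HSF1, out of 63241 gene identifiers. They were chosen on earlier results of the same 8 libraries, with the levels of SR and WT cells known, so their differences between SR and WT are given as a description and support nothing. All 10 passed the filter on low values, which asked for 2 or more libraries at or above 1 FPKM and which 15173 genes passed.

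Each cell line was sequenced as WT cells, which were the sensitive control, and as SR cells, a sorafenib-resistant line derived from it by stepwise exposure to rising concentrations of sorafenib and labelled with sorafenib treatment. Each cell line thus gave 2 WT and 2 SR libraries, making 4 groups, and all 8 libraries carried the same batch label. The labels did not say whether replicates came from separate cultures, so errors measure the spread between these libraries, which may be technical. Standard errors of fold changes rest on a spread shared by all 4 groups and drawn toward that of genes at similar levels. They are thus the same in both cell lines and do not measure the spread within either alone. Resistance and sorafenib treatment differed together between SR and WT and cannot be told apart. Expression was given as FPKM, fragments scaled by transcript length and library total, so levels of different genes may be compared per length. Fold changes below are differences of log2(FPKM + 1), which understate the change of genes at low levels. Summed FPKM was 384792 to 403905 in the WT libraries and 411763 to 429111 in the SR libraries. With each library scaled to a common sum, the fold change of HSPA8 in HepG2 went from 0.57 to 0.47 and that of BAG3 from 0.40 to 0.31. Of the 10 genes, only CRYAB in Huh7 rose with that scaling, from 0.34 to 0.37.

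The libraries did not group as labelled. Over the 15173 genes tested, 5 libraries were alike, with Pearson r of log2(FPKM + 1) between 0.914 and 0.977 in their 10 pairs. These were both HepG2 WT libraries, HepG2 SR replicate 1 and replicate 2 of Huh7 WT and of Huh7 SR. Replicate 1 of Huh7 WT and replicate 1 of Huh7 SR resembled each other with r = 0.965, and were at 0.731 to 0.783 with the 5 alike libraries. HepG2 SR replicate 2 stood apart from both, with r of 0.775 to 0.819 to the 5 and 0.815 to 0.846 to the Huh7 replicate 1 libraries.

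A pair of genes followed these profiles. The biliary keratin gene KRT19 was at 760 and 279 FPKM in HepG2 WT, 255 in HepG2 SR replicate 1, and 155 and 178 in replicate 2 of Huh7 WT and Huh7 SR. It was at 0.179 FPKM in HepG2 SR replicate 2 and at 1.78 and 2.37 in replicate 1 of Huh7 WT and Huh7 SR. The cancer-testis antigen gene MAGEA4 was at 237 FPKM in Huh7 WT replicate 1 and at 346 in Huh7 SR replicate 1, and was listed at 0 in the other 6 libraries. In Huh7, therefore, replicates of one group differed from each other more than the SR library of a replicate number differed from its WT library. The methods of the study report short tandem repeat profiling to authenticate the cell lines. The labels were kept as given, and whether libraries or cultures were exchanged was not tested. Every difference between SR and WT below therefore holds for the libraries as labelled. The 3 libraries that stand apart are thus replicate 2 of HepG2 SR and replicate 1 of both Huh7 groups. Values without them are given below beside those from all 8 libraries, and were added after the data were seen. Without them only HepG2 WT kept 2 libraries, and every other group rested on 1. The Huh7 values without them thus compare 1 SR library with 1 WT library.

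Marker lists showed how the libraries compared with a liver identity. All 13 hepatocyte markers passed the filter, and their summed FPKM was 7434 and 9927 in HepG2 WT, 10575 and 8381 in HepG2 SR, 1347 and 2764 in Huh7 WT, and 2076 and 10716 in Huh7 SR. ALB, the albumin gene and the most abundant of them, was at 2139 and 3157 FPKM in HepG2 WT, against 2867 and 4713 in HepG2 SR, the last being one of the 3 libraries that stand apart. In Huh7 it was at 12.0 and 604 FPKM in WT and at 42.3 and 2891 in SR. The median log2 fold change of the hepatocyte markers was 0.19 in HepG2 and 1.55 in Huh7, and 0.35 and 1.96 with the 3 libraries left out, and 1 of the 13 was called higher in HepG2 and 3 in Huh7 by the rule given below, where 0.877% and 0.942% of all genes were called higher. The 6 biliary epithelial markers summed to 908 and 395 FPKM in HepG2 WT, 463 and 74.3 in HepG2 SR, 24.3 and 310 in Huh7 WT, and 26.1 and 416 in Huh7 SR.

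Of the 8 mesenchymal markers, DCN, LUM and THY1 were below 1 FPKM in all 8 libraries. The list, led by ACTA2, summed to between 1.65 FPKM in Huh7 SR replicate 1 and 62.9 in HepG2 WT replicate 2. VIM, a mesenchymal gene outside the list, was picked out after its values were seen. It was at 536 FPKM in HepG2 SR replicate 2, where the list summed to 9.07, and at most at 7.02 in the other libraries. The 7 immune markers summed to between 61.5 FPKM in Huh7 WT replicate 1 and 1067 in Huh7 SR replicate 2, with the lysozyme gene LYZ the most abundant. LYZ was at 224 and 280 FPKM in HepG2 WT, against 891 and 816 in HepG2 SR without overlap, with a log2 fold change of 1.76 that was not called, and 1.83 with the 3 libraries left out. It was at 57.1 and 44.2 FPKM in Huh7 WT and at 79.2 and 1058 in Huh7 SR, where it was called higher with a log2 fold change of 2.51 and an adjusted p of 1.0, and 4.55 with those left out. The pan-leukocyte gene PTPRC and the T cell gene CD3E were below 1 FPKM in all 8 libraries and HLA-DRA was listed at 0. The 6 endothelial markers, led by PECAM1, summed to at most 4.58 FPKM, with VWF and CDH5 below 1 in all 8 libraries and CLEC4G at 0. The 7 muscle markers, led by CKM, summed to at most 9.12 FPKM, with MYH7, MYH2, TNNT2 and MB below 1 in all 8. The part of these profiles in the results below was not tested beyond leaving libraries out.

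The genes spanned a wide range of levels. The constitutive HSP70 gene HSPA8 was the most abundant, with a mean of 409 FPKM over the 8 libraries, at the 99.3th percentile of the genes tested. HSPB1 followed at 153 FPKM, DNAJB1 at 69.2, HSPH1 at 31.1, BAG3 at 17.6 and HSF1 at 15.0. HSPA1B at 8.93, HSPB8 at 8.36, HSPA1A at 8.24 and CRYAB at 4.89 FPKM were the lowest. HSPA8 was above HSPB1 in every library and their ranges did not overlap. HSPB1 was above DNAJB1, DNAJB1 above HSPH1 and HSPH1 above BAG3 in all 8 libraries, although the ranges of these neighbours overlapped across libraries. From BAG3 downward the order varied, and HSPB8 was above HSPA1A in 4 of 8 libraries.

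**Figure D1:**
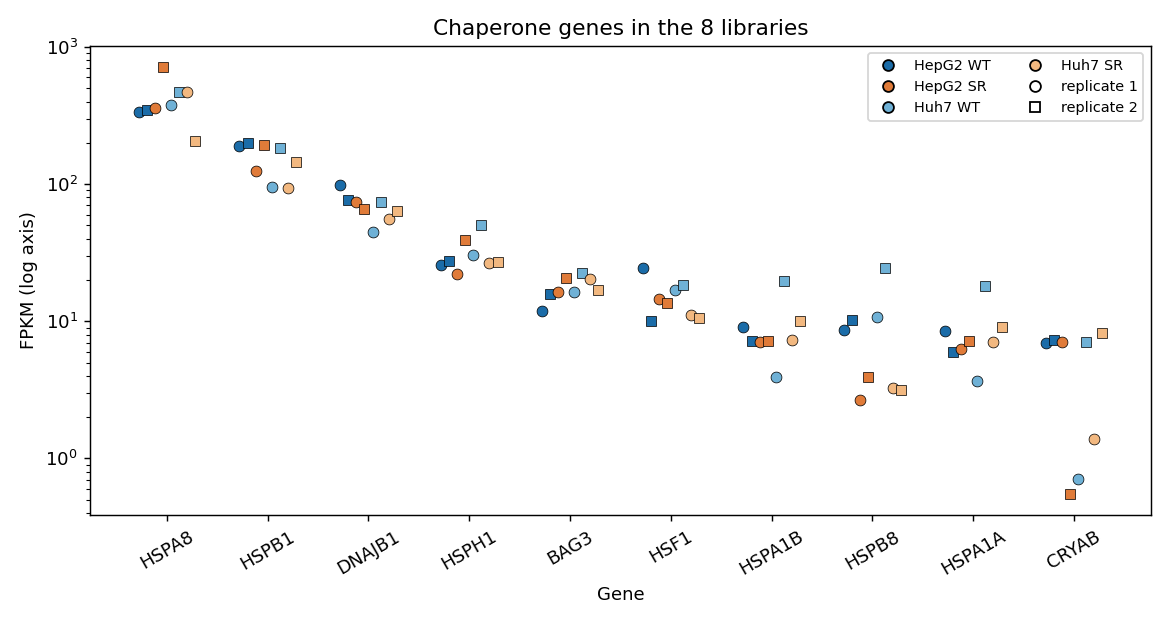
FPKM of the 10 chaperone genes on a log axis, ordered by their mean over the 8 libraries, with 1 point per library, colours for the groups and shapes for the replicate number. HSPB8 is between 2.69 and 3.90 FPKM in the SR libraries and between 8.58 and 24.4 in the WT libraries, and CRYAB is below 1.5 in 3 libraries.

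HSPB8, a small heat shock protein that acts with BAG3, lies at chr12:119178642-119221131 on the plus strand of GRCh38. It was at 8.58 and 10.2 FPKM in HepG2 WT, against 2.69 and 3.90 in HepG2 SR. It was at 10.7 and 24.4 FPKM in Huh7 WT and at 3.29 and 3.14 in Huh7 SR. All 4 SR libraries were below all 4 WT libraries, the only one of the 10 genes in which this was so, and 2.17% of the genes tested had that order.

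The mean of HSPB8 was 9.39 ± 1.15 FPKM (SD, n = 2) in HepG2 WT and 3.29 ± 0.857 (SD, n = 2) in HepG2 SR, where the log2 fold change was -1.29 with a standard error of 0.45 and an adjusted p of 0.956. The mean was 17.5 ± 9.69 FPKM (SD, n = 2) in Huh7 WT and 3.22 ± 0.104 (SD, n = 2) in Huh7 SR, where the log2 fold change was -2.03 with a standard error of 0.45 and an adjusted p of 1.0. In neither cell line was the difference past the threshold after adjustment over all genes. With the 3 libraries that stand apart left out, the values were -1.49 in HepG2 and -2.61 in Huh7. Leaving out 1 library of the same cell line at a time gave values from -1.49 to -1.08 in HepG2 and from -2.59 to -1.47 in Huh7, and such ranges are given for each gene below. In the replicate 1 pair of Huh7 alone SR was at 3.29 FPKM against 10.7 in WT. In bulk samples, fewer cells of a type and less RNA per cell cannot be told apart. The fold change in Huh7 minus that in HepG2 was -0.74 with a standard error of 0.64 and an adjusted p of 1.0.

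Calling a gene required an unadjusted p below 0.05 together with a log2 difference of 0.5 or more in either direction, limits taken from the methods of the study. By this rule HSPB8 was the 1 of the 10 genes called in HepG2 and also the 1 called in Huh7, lower in SR each time. Over all genes tested, 2.14% were called in HepG2 and 1.87% in Huh7, and 1.27% and 0.923% were called lower in SR. None of the 10 was called for the difference between the cell lines, where 0.606% of genes were. No gene among the 15173 had an adjusted p under 0.05 in limma in either cell line, where 325 and 283 genes had an unadjusted p under 0.05. Both shares, 2.14% and 1.87%, were below the rate of 0.05 at which such p arise where no gene differs. A call by this rule is therefore given as a description. As the 10 genes were chosen from these values, nothing is read from their counts.

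Without regard to the size of a difference, the groups of 2 SR and 2 WT libraries did not overlap for 4 of the 10 genes in HepG2, HSPB8 and DNAJB1 being lower in SR and BAG3 and HSPA8 higher. In all genes tested the SR libraries of HepG2 were both below the WT libraries in 20.1% and both above in 18.1%. In Huh7 the groups did not overlap for HSPB8, HSPH1 and HSF1, all lower in SR, and over all genes 12.9% were below and 9.06% above.

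The promoters of HSPB8, HSPB1, HSPA1A and HSPA8 are shown because HSF1 binds heat shock elements, arrays of inverted GAA units. The 250 bases before the transcription start were taken from RefSeq on GRCh38.p14. The capitals mark units spaced as GAANNTTC or TTCNNGAA, which read the same on both strands, including arrays of 3 units, which overlap the shorter matches.

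HSPB8 promoter, chr12:119178681-119178930, plus strand: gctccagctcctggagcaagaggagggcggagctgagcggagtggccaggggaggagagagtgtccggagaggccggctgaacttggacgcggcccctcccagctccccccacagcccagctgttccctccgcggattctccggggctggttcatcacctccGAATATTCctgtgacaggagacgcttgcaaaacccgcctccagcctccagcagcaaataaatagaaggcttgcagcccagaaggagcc

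HSPB1 promoter, chr7:76302423-76302672, plus strand: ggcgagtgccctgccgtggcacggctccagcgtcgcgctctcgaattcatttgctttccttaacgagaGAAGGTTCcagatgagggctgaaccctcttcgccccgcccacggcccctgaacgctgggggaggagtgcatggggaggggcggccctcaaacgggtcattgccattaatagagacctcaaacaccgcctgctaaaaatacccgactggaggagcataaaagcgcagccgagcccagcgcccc

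HSPA1A promoter, chr6:31815293-31815542, plus strand: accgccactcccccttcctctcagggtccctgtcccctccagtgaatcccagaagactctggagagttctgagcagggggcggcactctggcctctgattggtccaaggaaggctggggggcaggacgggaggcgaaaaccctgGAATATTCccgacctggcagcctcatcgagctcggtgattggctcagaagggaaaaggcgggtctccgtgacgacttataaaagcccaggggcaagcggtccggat

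HSPA8 promoter, chr11:123062137-123062386, minus strand: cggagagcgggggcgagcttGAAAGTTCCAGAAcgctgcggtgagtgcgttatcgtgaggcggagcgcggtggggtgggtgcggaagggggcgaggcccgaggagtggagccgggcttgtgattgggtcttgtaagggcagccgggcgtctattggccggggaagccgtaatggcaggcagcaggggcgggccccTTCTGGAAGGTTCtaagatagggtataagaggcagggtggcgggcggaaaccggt

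HSPB8 held 1 such pair, beginning 88 bases before the start, HSPB1 held 1 at 182 bases and HSPA1A held 1 at 106 bases. HSPA8 held 4 pairs, which form 2 arrays of 3 units, the nearest match beginning 50 bases before the start. Of 34788 distinct promoter windows of the same length, 11.6% held a pair in either order, 5.80% the first order and 6.63% the second, and 0.443% held an array of 3 units. Entries were used for 8 of the 10 genes, and 6 of the 8 held at least 1 pair. The windows of BAG3 and HSPH1 held none, HSPA1B held 1 at 105 bases, and DNAJB1, with 3 annotated starts, held 2 before 1 of them. A match describes letters in these windows and says nothing of binding. The annotated gene bodies of HSPB8, HSPB1, HSPA1A and HSPA8 in GENCODE release 29 begin upstream of these RefSeq starts. The whole windows of HSPB8 and HSPA8 and part of those of HSPB1 and HSPA1A lie inside the gene there.

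HSPB1, the most abundant small heat shock protein of the 10 genes, stabilises actin and stress-damaged proteins, and lies at chr7:76302544-76304295 on the plus strand. It was at 189 and 198 FPKM in HepG2 WT, against 125 and 193 in HepG2 SR. It was at 95.7 and 183 FPKM in Huh7 WT and at 93.4 and 146 in Huh7 SR. The groups overlapped in both cell lines, and both Huh7 replicate 1 libraries were the lowest of the 8. The log2 fold change was -0.31 with a standard error of 0.44 in HepG2 and -0.18 with a standard error of 0.44 in Huh7. Leaving out the 3 libraries gave -0.62 and -0.32. With 1 library left out at a time HSPB1 ran from -0.62 up to 0.00 in HepG2 and from -0.64 up to 0.29 in Huh7. HSPB8 amounted to 4.55% and 5.15% of the HSPB1 level in HepG2 WT, to 2.14% and 2.02% in HepG2 SR, to 11.2% and 13.3% in Huh7 WT and to 3.52% and 2.15% in Huh7 SR.

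CRYAB, alpha-B-crystallin, known from lens, heart and muscle, lies at chr11:111908565-111923722 on the minus strand. It was at 6.98 and 7.27 FPKM in HepG2 WT, against 7.06 and 0.552 in HepG2 SR. It was at 0.710 and 7.03 FPKM in Huh7 WT and at 1.39 and 8.16 in Huh7 SR. The 5 alike libraries were between 6.98 and 8.16 FPKM, and the 3 that stand apart were at 1.39 or less, so CRYAB divided the libraries as KRT19 did and not as SR and WT. Its log2 fold change was -1.20 with a standard error of 1.08 in HepG2 and 0.34 with a standard error of 1.08 in Huh7, and became -0.01 and 0.19 with the 3 libraries left out. Single libraries left out gave CRYAB values from -2.39 up to -0.01 in HepG2 and from -0.78 up to 1.45 in Huh7.

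CRYAA, the other alpha-crystallin gene and the most abundant gene of the list of further small heat shock proteins, was at 30.6 and 28.3 FPKM in HepG2 WT, 54.8 in HepG2 SR replicate 1, 54.7 in Huh7 WT replicate 2 and 42.0 in Huh7 SR replicate 2. It was listed at 0 in HepG2 SR replicate 2 and Huh7 WT replicate 1 and was at 0.0286 in Huh7 SR replicate 1. CRYAA therefore divided the libraries as CRYAB did. The other 6 genes of that list that did not pass the filter, HSPB2, HSPB3, HSPB6, HSPB7, HSPB9 and ODF1, were below 1 FPKM in all 8 libraries. HSPB2, which lies next to CRYAB on the opposite strand and overlaps it in the annotation, was at most at 0.346 FPKM, and C11orf52, which also overlaps CRYAB, reached 13.4. Whether the counting used strand was not given in the sources used here, so reads from overlapping genes could not be told apart.

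**Figure D2:**
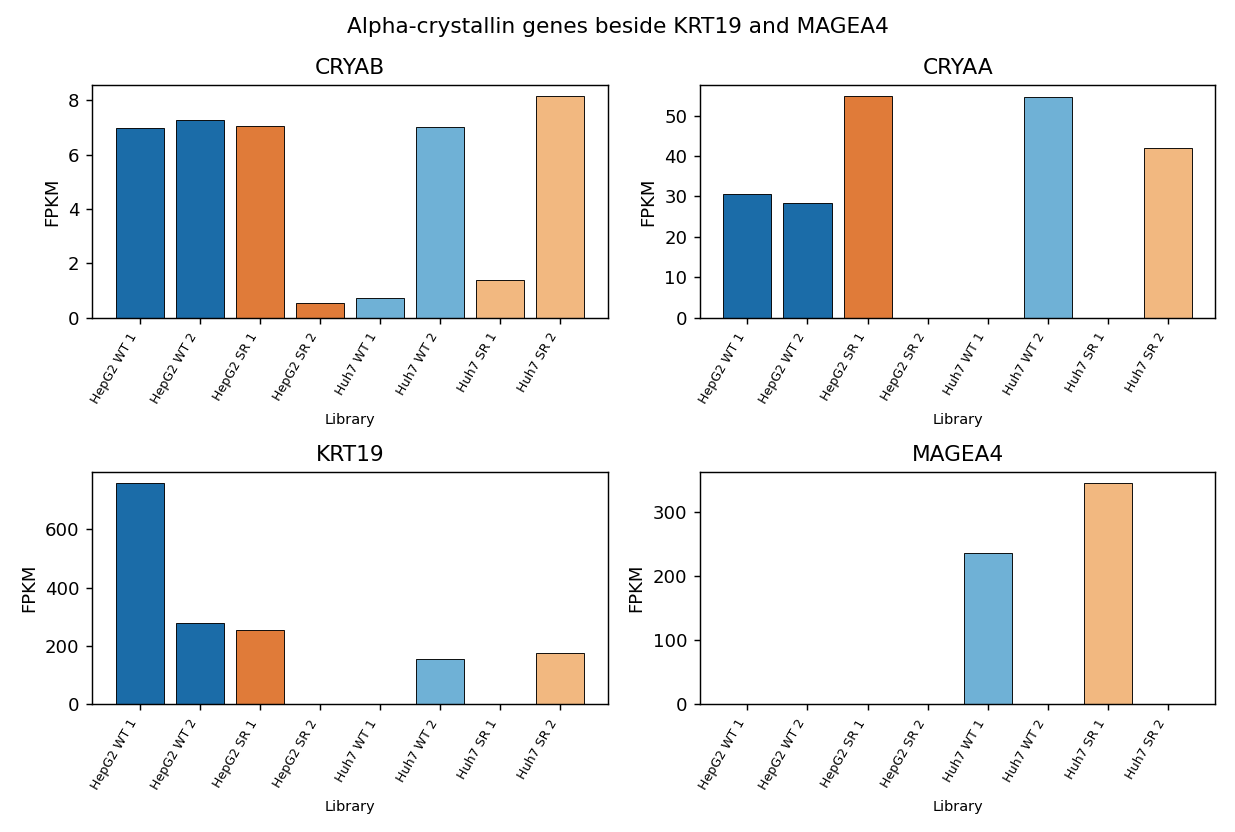
FPKM of CRYAB, CRYAA, KRT19 and MAGEA4 in each library on linear axes, with colours for the groups. CRYAB, CRYAA and KRT19 are high in the same 5 libraries, and MAGEA4 is at 237 and 346 FPKM in the Huh7 replicate 1 libraries alone.

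BAG3, the partner of HSPB8 and a nucleotide exchange factor of HSP70, lies at chr10:119651370-119677819 on the plus strand. It was at 11.8 and 15.8 FPKM in HepG2 WT, against 16.2 and 20.6 in HepG2 SR. It was at 16.4 and 22.4 FPKM in Huh7 WT and at 20.4 and 16.8 in Huh7 SR. SR was above WT without overlap in HepG2, while the Huh7 groups overlapped. The log2 fold change was 0.40 with a standard error of 0.35 in HepG2 and -0.05 with a standard error of 0.35 in Huh7, and 0.23 and -0.39 with the 3 libraries left out. BAG3 ran from 0.20 up to 0.59 in HepG2 and from -0.26 up to 0.16 in Huh7 with 1 library left out, and was at 0.02 in Huh7 with quantile normalization.

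The ratio of HSPB8 to BAG3 FPKM was 0.725 and 0.648 in HepG2 WT and 0.649 and 1.09 in Huh7 WT. It was 0.165 and 0.189 in HepG2 SR and 0.161 and 0.187 in Huh7 SR. The 4 SR ratios lay between 0.161 and 0.189 and all 4 WT ratios were at 0.648 or above. This ratio contains HSPB8, which was chosen from these values, and is a description.

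**Figure D3:**
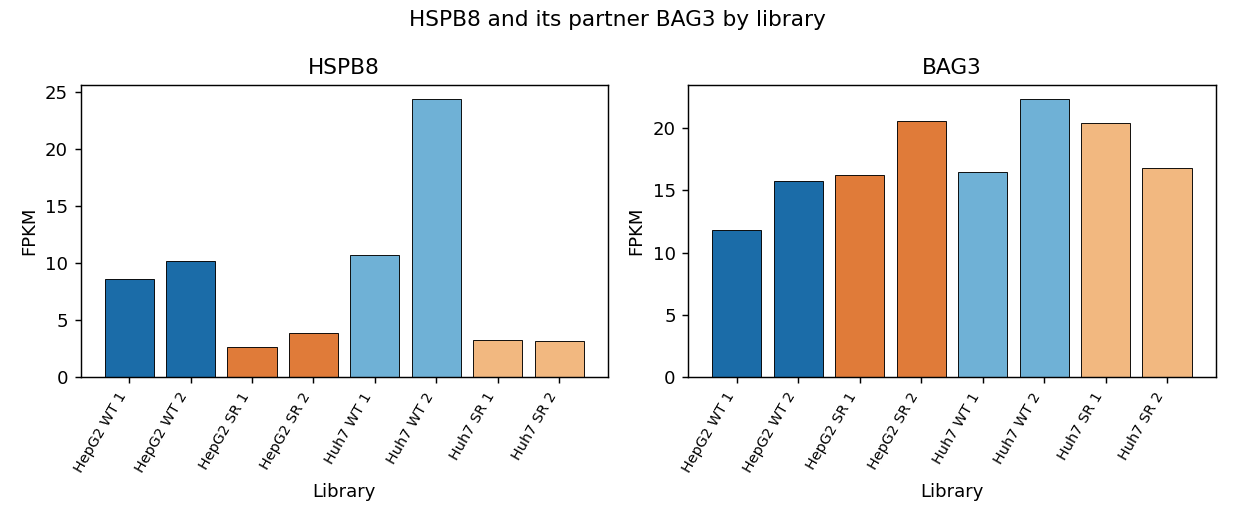
FPKM of HSPB8 and of BAG3 in each library on linear axes starting at 0, with colours for the groups. HSPB8 is at most 3.90 FPKM in the SR libraries, while BAG3 is between 11.8 and 22.4 in all 8.

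HSPA1A and HSPA1B, the stress-inducible HSP70 genes, are neighbours at chr6:31815464-31817946 and chr6:31827735-31830255, both on the plus strand. Their longest open reading frames in the annotated transcripts are 1926 bases long and 99.8% identical, differing at 4 positions, so reads may have been shared between them and their separate values are uncertain. HSPA1A was at 8.44 and 5.93 FPKM in HepG2 WT, at 6.31 and 7.24 in HepG2 SR, at 3.66 and 18.2 in Huh7 WT and at 7.01 and 9.14 in Huh7 SR. HSPA1B was at 9.14 and 7.19 FPKM in HepG2 WT, at 7.003 and 7.22 in HepG2 SR, at 3.91 and 19.7 in Huh7 WT and at 7.30 and 10.002 in Huh7 SR. The ratio of HSPA1B to HSPA1A lay between 0.997 and 1.21.

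Summed, HSPA1A and HSPA1B were at 17.6 and 13.1 FPKM in HepG2 WT, against 13.3 and 14.5 in HepG2 SR. They summed to 7.57 and 37.8 FPKM in Huh7 WT and to 14.3 and 19.1 in Huh7 SR. Huh7 WT held both the lowest and the highest sum. The log2 fold changes of HSPA1A and HSPA1B were -0.06 and -0.17 in HepG2 with a standard error of 0.65, and -0.07 and -0.08 in Huh7 with a standard error of 0.65. Without the 3 libraries they were -0.15 and -0.19 in HepG2 and -0.92 and -0.91 in Huh7. HSPA1A ranged from -0.28 to 0.16 in HepG2 and from -1.09 to 0.95 in Huh7 with 1 library left out, and was at 0.02 in both with quantile normalization. HSPA1B ranged from -0.32 to -0.01 in HepG2 and from -1.11 to 0.96 in Huh7, and was at 0.01 in Huh7 with that normalization. HSPA6, a heat-inducible HSP70 gene picked out after its values were seen, was below 1 FPKM in all 8 libraries.

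HSPA8, the constitutive HSP70 of the cytosol, lies at chr11:123057489-123063230 on the minus strand. It was at 334 and 348 FPKM in HepG2 WT, against 361 and 711 in HepG2 SR. It was at 376 and 468 FPKM in Huh7 WT and at 470 and 208 in Huh7 SR. HepG2 SR replicate 2 was the highest library and Huh7 SR replicate 2 the lowest. The log2 fold change was 0.57 with a standard error of 0.51 in HepG2 and -0.42 with a standard error of 0.51 in Huh7, and 0.08 and -1.17 with the 3 libraries left out. HSPA8 ranged from 0.08 to 1.06 in HepG2 and from -1.01 to 0.16 in Huh7 when single libraries were left out. HSPA8 supplied between 41.3% and 67.5% of the summed FPKM of the 10 genes. Of 21 pseudogenes named after HSPB1, HSPA8 or DNAJB1, none was above 0.991 FPKM.

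DNAJB1, an HSP40 protein that stimulates the ATPase of HSP70, lies at chr19:14514770-14529770 on the minus strand. It was at 99.1 and 77.2 FPKM in HepG2 WT, against 74.2 and 65.6 in HepG2 SR. It was at 44.9 and 73.9 FPKM in Huh7 WT and at 55.3 and 63.2 in Huh7 SR. SR was below WT without overlap in HepG2, and in Huh7 both SR libraries lay between the WT libraries. The log2 fold change was -0.32 with a standard error of 0.36 in HepG2 and 0.04 with a standard error of 0.36 in Huh7, and -0.23 and -0.22 with the 3 libraries left out. The range with 1 library left out was -0.50 to -0.14 in HepG2 and -0.32 to 0.39 in Huh7, and the value in Huh7 was -0.05 with each library scaled to a common sum. DNAJB1 overlaps TECR, a gene on the opposite strand that reached 104 FPKM.

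HSPH1, the HSP110 that exchanges the nucleotide of HSP70, lies at chr13:31134974-31162388 on the minus strand. It was at 25.8 and 27.4 FPKM in HepG2 WT, against 22.2 and 38.99 in HepG2 SR. It was at 30.2 and 50.1 FPKM in Huh7 WT and at 26.6 and 27.2 in Huh7 SR. The groups overlapped in HepG2, and in Huh7 SR was below WT. The log2 fold change was 0.14 with a standard error of 0.40 in HepG2 and -0.52 with a standard error of 0.40 in Huh7. Leaving out the 3 libraries turned the value in HepG2 to -0.25 and gave -0.85 in Huh7. Omitting 1 library at a time gave -0.25 to 0.54 in HepG2 and -0.87 to -0.16 in Huh7.

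HSF1, the heat shock transcription factor, lies on chromosome 8 on the plus strand. Its mRNA was at 24.5 and 10.003 FPKM in HepG2 WT, against 14.7 and 13.6 in HepG2 SR. It was at 16.9 and 18.5 FPKM in Huh7 WT and at 11.1 and 10.6 in Huh7 SR. The HepG2 SR libraries lay between the WT libraries, and in Huh7 SR was below WT. The log2 fold change was -0.15 with a standard error of 0.44 in HepG2 and -0.66 with a standard error of 0.44 in Huh7, and -0.10 and -0.75 with the 3 libraries left out. Its range was -0.75 to 0.46 in HepG2 and -0.72 to -0.60 in Huh7 with single libraries omitted. HSF1 is regulated mainly at the protein level, which was not measured here. It overlaps DGAT1, a gene on the opposite strand that reached 12.9 FPKM.

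**Figure D4:**
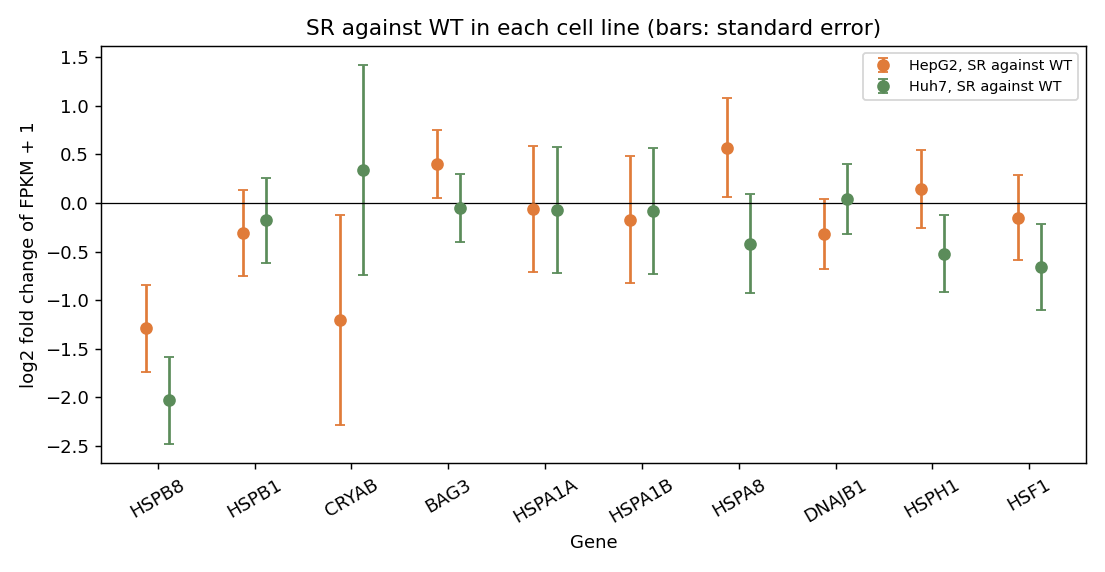
Log2 fold change of FPKM + 1, SR against WT, for the 10 genes in HepG2 and Huh7, with bars for the standard error. HSPB8 is at -1.29 and -2.03, and the other genes lie between -1.20 and 0.57.

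Genes with the most similar profiles over the 8 libraries were named by Pearson r of log2(FPKM + 1), as a description of 8 libraries that share the profiles above. For HSPB8 these were KLHL28 with r = 0.970, FRMD4B with 0.966 and RAD54L2 with 0.951. KLHL28 was at 3.01 and 2.56 FPKM in HepG2 WT, 1.45 and 1.64 in HepG2 SR, 3.06 and 3.85 in Huh7 WT and 1.47 and 1.63 in Huh7 SR. For HSPB1 they were WASH4P with 0.981, PTK2B with 0.978 and KLF7 with 0.971. For CRYAB they were DQX1 with 0.994, TCF7 with 0.994 and MXRA8 with 0.993. MXRA8 was at 0.329 FPKM in HepG2 SR replicate 2 and at 1.22 and 1.80 in the Huh7 replicate 1 libraries, against 68.1 to 98.9 in the others. For BAG3 they were MAPKAPK5 with 0.981, LUC7L2 with 0.962 and SRRM1 with 0.958.

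The wider chaperone network was followed in 11 lists of 135 further genes, of which 123 were tested. The lists were written with earlier results of these data known, so the counts and medians of each list below are a description. In HepG2, 1 of the 123 was called higher and 0 lower, with a median log2 fold change of 0.29 against -0.03 over all genes. In Huh7, 1 was called higher and 6 lower, with a median of -0.18 against -0.05 over all genes. For the difference between the cell lines 1 gene was called. Over all genes 2.14% were called in HepG2, 1.87% in Huh7, 0.923% lower in Huh7, and 0.606% for the difference. No adjusted p among these calls was under 0.05.

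The chaperones of the endoplasmic reticulum held 4 of the 6 genes called lower in Huh7 SR, of 18 tested, where 0.923% of all genes were called lower. HSPA5, the HSP70 of that compartment, was at 392 and 695 FPKM in Huh7 WT and at 199 and 203 in Huh7 SR, a log2 fold change of -1.37 with a standard error of 0.41 and an adjusted p of 1.0. Its value in HepG2 was -0.39 with a standard error of 0.41, and -0.12 with the 3 libraries left out. HERPUD1, which acts in the degradation of proteins from that compartment, was at 84.0 and 131 FPKM in Huh7 WT and at 38.5 and 42.7 in Huh7 SR. HYOU1, its HSP110, was at 85.7 and 127 FPKM in Huh7 WT and at 69.5 and 23.8 in Huh7 SR, and DNAJC10, a disulfide reductase, was at 30.5 and 35.7 in WT and at 18.7 and 8.92 in SR. In Huh7 the log2 fold changes of HERPUD1, HYOU1 and DNAJC10 were -1.35, -1.33 and -1.28, and in HepG2 they were -0.64, -0.11 and -0.18, which became 0.04, 0.08 and 0.06 without those libraries. In Huh7, when the 3 libraries were left out, HSPA5 was at -1.77, HERPUD1 at -1.60, HYOU1 at -2.37 and DNAJC10 at -1.89. The median over the 18 genes was -0.63 in Huh7 and 0.22 in HepG2, and -1.05 and 0.19 with the 3 libraries left out. The median log2 fold change of the hepatocyte markers was 1.55 in Huh7, where 3 of the 13 were called higher against 0.942% of all genes. Their part in these values was not tested. P4HB, the most abundant gene of the endoplasmic reticulum list, had a log2 fold change of -0.23 in Huh7 and 0.31 in HepG2, -0.36 and 0.18 without those libraries, and was not called.

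Among the further HSP70 and HSP110 genes HSPA13 was the 1 of 7 tested that was called, lower in Huh7 SR. Over all genes tested, 0.923% were called lower there. It was at 65.7 and 66.0 FPKM in Huh7 WT and at 30.6 and 13.1 in Huh7 SR, a log2 fold change of -1.66 with a standard error of 0.53, against 0.35 with a standard error of 0.53 in HepG2, and -2.25 and 0.12 with the 3 libraries left out. HSPA4, the most abundant gene of this list, was at -0.20 in HepG2 and 0.17 in Huh7, and at 0.12 and 0.19 without those libraries. The median of the 7 genes was 0.11 in HepG2 and -0.19 in Huh7, and 0.12 and -0.08 without them. Of 14 genes of chaperone-assisted autophagy tested, WIPI1, which marks forming autophagosomes, was called lower in Huh7 SR, at 36.5 and 54.3 FPKM in WT and 20.1 and 16.1 in SR. Its log2 fold change was -1.26, and -1.69 with the 3 libraries left out, and in HepG2 it was -0.20 and 0.08. DYNLL1, the most abundant of them, was at 0.23 in HepG2 and 0.12 in Huh7, and at -0.04 and 0.20 with those left out. The median of the 14 genes was 0.05 in HepG2 and -0.41 in Huh7, and -0.01 and -0.58 with those left out.

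Of the 123 list genes tested, 1 was called higher in each cell line. Over all genes, 0.877% were called higher in HepG2 and 0.942% in Huh7. HSPE1, the co-chaperonin of mitochondria, which is in the lists of mitochondrial chaperones and of heat-inducible genes, was called higher in Huh7 SR, at 175 and 217 FPKM in WT and 350 and 391 in SR. Its log2 fold change there was 0.92, and 0.84 with the 3 libraries left out, and in HepG2 it was 0.57 with a standard error of 0.32, and 0.67 without those libraries. PFDN5, a prefoldin subunit, was called higher in HepG2 SR, at 37.6 and 26.1 FPKM in WT and 58.4 and 82.8 in SR. Its log2 fold change was 1.13, and 0.88 with the 3 libraries left out. In Huh7 PFDN5 was not called, at 24.2 and 15.5 FPKM in WT and 37.4 and 33.1 in SR without overlap, with a log2 fold change of 0.83, a standard error of 0.38 and 1.05 with those libraries left out. The most abundant genes of these lists, HSPD1, UBB and CCT7, were not called, with values of 0.55, 0.51 and 0.34 in HepG2 and 0.09, 0.47 and -0.05 in Huh7. Without the 3 libraries these were 0.69, 0.33 and 0.08 in HepG2 and -0.21, 0.14 and -0.43 in Huh7.

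No gene was called in the lists of HSP40, HSP90, BAG and HSF genes or in that of further small heat shock proteins. The 16 tested HSP40 genes had medians of -0.11 in HepG2 and -0.14 in Huh7, the 16 HSP90 and co-chaperone genes 0.33 and -0.18, the 9 BAG and nucleotide exchange genes 0.15 and 0.01, and the 9 HSF genes and regulators 0.41 and -0.11. With the 3 libraries left out these medians were -0.06 and -0.24 for HSP40, 0.10 and -0.46 for HSP90, 0.18 and -0.44 for BAG, and 0.23 and -0.48 for HSF genes. The most abundant gene of each, DNAJA1, HSP90AB1, ST13 and EEF1A1, had log2 fold changes of 0.68, 0.07, 0.26 and 0.09 in HepG2 and of -0.07, -0.22, 0.02 and 0.00 in Huh7. Without those 3 libraries they were 0.15, 0.15, 0.07 and 0.23 in HepG2 and -0.15, -0.29, -0.24 and -0.18 in Huh7. With all 8 libraries the 14 TRiC and prefoldin genes had the largest median among the chaperone lists in HepG2, 0.75. Their median in Huh7 was 0.07. With the 3 libraries left out these became 0.43 and -0.36. The 2 tested small heat shock protein genes then had the larger median in HepG2, 0.74. The 19 heat-inducible genes had medians of 0.51 in HepG2 and -0.10 in Huh7, and 0.17 and -0.53 with those libraries left out. The 14 mitochondrial chaperones had medians of 0.26 and -0.06, which were 0.25 and -0.36, and the 2 tested small heat shock protein genes -0.70 and 0.27, which were 0.74 and 0.16 with those libraries left out.

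**Figure D5:**
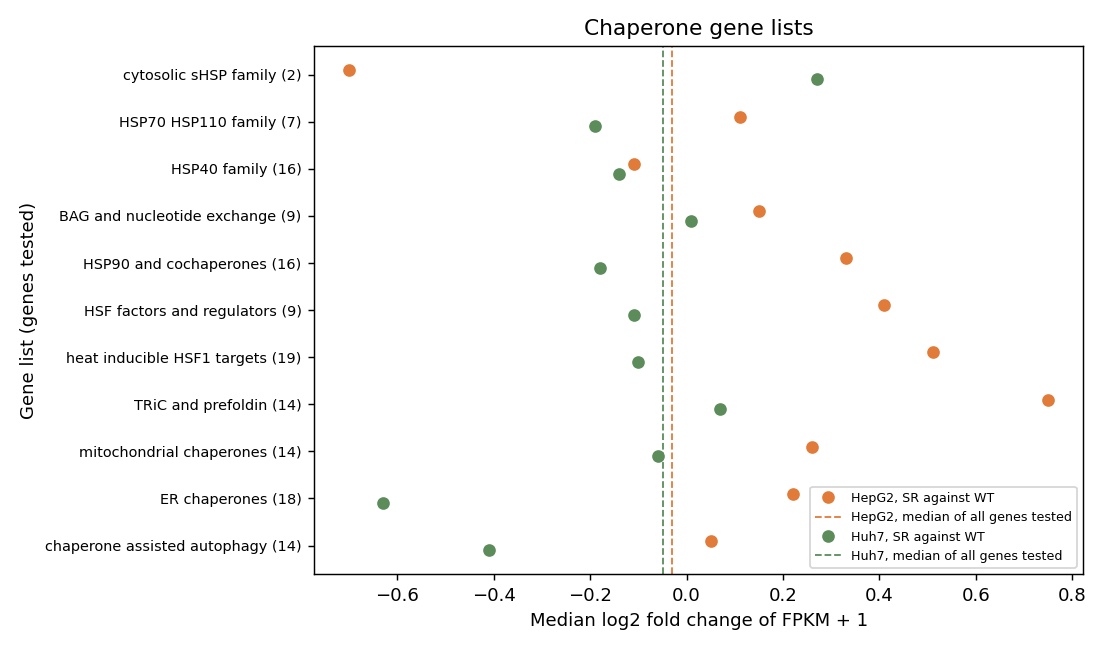
Median log2 fold change of FPKM + 1, SR against WT, of each chaperone gene list in HepG2 and Huh7, with the number of genes tested in brackets and dashed lines for the medians of all genes tested. The endoplasmic reticulum list is at -0.63 in Huh7 and the TRiC and prefoldin list at 0.75 in HepG2, against -0.05 and -0.03 over all genes.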

How the data were processed

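Messenger RNA was enriched on oligo(dT) beads and sequenced in 8 libraries, 2 from each group. The FPKM values, 1 per gene and library, are those the authors deposited. The submitters' processing notes name fastp 0.20.0 and the GRCh38 build, and the aligner, quantifier and annotation release were not given in the sources used here. The methods of the study name edgeR, used by the authors for their own comparison, which needs counts and was not used here. Symbols were matched for 62666 of 63241 identifiers.

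Genes at or above 1 FPKM in 2 or more libraries were tested with limma 3.58.1 in R 4.3.3 (lmFit, eBayes with trend) on log2(FPKM + 1), with 1 mean for each of the 4 groups and Benjamini-Hochberg adjustment over all 15173 genes. The SR and WT comparison in each cell line was tried on simulated data with independent noise in each library. Libraries that deviate together, as those of the same number did in Huh7, were not simulated. Tables were made with Python 3.11.15, pandas 2.3.3 and numpy 2.4.6, and figures with matplotlib 3.10.9. Positions came from GENCODE release 29.

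The 10 genes, the 11 chaperone lists and the 6 marker lists were chosen with earlier results of these data known. Named are the 10 genes, chaperone list genes that were called, the most abundant gene of each list, the 3 genes most like HSPB8, HSPB1, CRYAB and BAG3, and KRT19 and MAGEA4; other names were chosen after their values were seen.

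Read totals were not used here. Where genes below 0.3 FPKM in both libraries shared 1 common ratio to HepG2 WT replicate 1, it gave a relative depth of 0.703 for HepG2 WT replicate 2 and 1.06 to 1.39 for the others, resting on 13 to 34 genes each. For Huh7 WT replicate 1 a ratio larger by a factor of 2 was nearly as common, so its depth is ambiguous by that factor. Earlier attempts to recover whole reads from the values alone gave no usable answer. Genes above 0 numbered 38276 in HepG2 WT replicate 2 and 27188 to 29071 elsewhere. Alternatives were the pseudocount, the filter, the scaling, the fit and each library left out.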

Additional observations from a re-analysis of the deposited data

Results flagged for a closer look

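HSPA13, an HSP70 relative of the endoplasmic reticulum, met the calling rule for the difference between the cell lines, which uses an unadjusted p, and did not pass after adjustment. Its log2 fold change in Huh7 minus that in HepG2 was -2.01 with a standard error of 0.75 and an adjusted p of 1.0 in limma. It was the 1 gene so called of the 123 list genes tested, where 0.606% of all genes were called. It was at 8.71 and 19.4 FPKM in HepG2 WT, 14.3 and 20.1 in HepG2 SR, 65.7 and 66.0 in Huh7 WT and 30.6 and 13.1 in Huh7 SR. With the 3 libraries that stand apart left out the fold changes were 0.12 in HepG2 and -2.25 in Huh7. The part of the library profiles in this difference was not tested.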

How the results depend on the processing

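The counts of called genes depended on the libraries and on the fit. In HepG2 the main count of 325 became 504 with the filter at FPKM of 0.1, and without each library in turn it lay between 57 (without HepG2 SR replicate 2) and 1749 (without HepG2 SR replicate 1), with 73 without HepG2 WT replicate 1. In Huh7 the main count of 283 became 124 with a separate fit of each cell line and 1777 with the 3 libraries that stand apart left out, a choice made after the data were seen that leaves the spread to rest on the HepG2 WT pair, and it lay between 154 (without HepG2 WT replicate 2) and 818 (without Huh7 WT replicate 1) without each library, with 158 without HepG2 WT replicate 1 and 568 without Huh7 SR replicate 1. For the difference between the cell lines the main count of 92 became 254 with the filter at 0.1, 168 without a filter and 940 with the 3 libraries left out, and lay between 24 (without HepG2 WT replicate 1) and 945 (without HepG2 SR replicate 1), with 28, 339 and 465 without HepG2 SR replicate 2, Huh7 WT replicate 1 or Huh7 SR replicate 1. At an adjusted p under 0.05 limma called 0 genes in all 3. The cause was not tested. Leaving out a library leaves a group of 1, assumed to vary like the others.

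With the replicate number as a replicate block within each cell line the counts were 1392 in HepG2, 669 in Huh7 and 535 for the difference. The deviations of same-numbered libraries correlated with r = 0.125 in HepG2 and 0.796 in Huh7 across genes, so in Huh7 they deviated together. The labels do not say that the number marks a shared culture or day and there are only 2 numbers, so the fit without the block was kept.

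Of 340 recomputed fold changes of the 10 genes, 180 came from alternatives that cannot alter a fold change, such as the filter or a library of the other cell line. Of the other 160, 22 moved by more than the residual SD, 16 of them on leaving out 1 library, and 24 had the other sign, none of them for HSPB8. HSPB8 ranged from -1.52 to -1.08 in HepG2 and from -2.61 to -1.47 in Huh7 over the 8 alternatives that can alter it in each.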
